A study of Rattus norvegicus with 56 samples.

Results

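Cytosolic ribosomal proteins are the protein parts of the ribosome, which reads mRNA and makes protein in the cytoplasm. They fall into proteins of the small subunit (Rps genes), proteins of the large subunit (Rpl genes) and the acidic stalk proteins Rplp0, Rplp1 and Rplp2, which recruit the elongation factors. Their mRNAs are abundant in most cells, and many start with a run of pyrimidines (a terminal oligopyrimidine tract, TOP) through which the kinase mTORC1 is known to control their translation. Here the members were all genes whose symbol in the 30 min table has the form Rps or Rpl with a number, an optional a, x or l, or is Rplp0, Rplp1 or Rplp2. They were followed into the 3 h table by Ensembl identifier. The rule found 83 loci with 77 symbols, of 32883 loci in each table, and all 83 were in the 3 h table.

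The rats were male Sprague-Dawley animals whose left ureter was tied near the renal pelvis (unilateral ureteral obstruction, UUO) or exposed in the same operation without being tied (sham). The labels give a body weight range and no age. Cortical collecting duct (CCD) and cortical thick ascending limb (cTAL) were dissected by hand at 30 min and at 3 h, with 4 numbered replicates per arm, segment and time. Each CCD number has 2 libraries and each cTAL number has 1, so 48 libraries were used. Which animal a number stands for is not said beyond that, so p-values measure the spread between numbered samples.

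All values are TPM (length-corrected transcript abundances scaled to a fixed total per library), which are corrected for transcript length and allow levels of different genes to be set side by side. They do not keep the sequencing depth, which is therefore unknown. A library held between 8744 and 11916 genes of at least 1 TPM at 30 min, and between 9585 and 10750 at 3 h. In sham at 30 min the segment labels matched their main markers. The 8 principal cell markers summed to 7496 to 12315 TPM in CCD sham and to 56.7 to 114 TPM in cTAL sham. The 7 thick limb markers summed to 45288 to 75890 TPM in cTAL sham and to 916 to 1652 TPM in CCD sham. Markers of other cells were present too at 30 min. Distal and connecting tubule markers summed to 297 to 5207 TPM in CCD sham, and macrophage markers to 1247 to 3034 TPM in cTAL sham. At 3 h some replicates were more mixed in thick limb and principal cell markers. Thick limb markers summed to 614 to 5218 TPM in CCD sham and 266 to 10156 TPM in CCD UUO, and principal cell markers reached 618 TPM in cTAL sham. The kits amplify cDNA without a stated strand, so reads of overlapping genes on opposite strands could not be told apart. Both times are in tables made separately, and no difference between times was tested.

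Of the 83 loci, 29 are small subunit proteins, 45 large subunit proteins, 3 stalk proteins and 2 (Rpl5 and Rpl11) proteins that travel with the smallest ribosomal RNA and can bind the p53 regulator Mdm2. The remaining 4 (Rps27l, Rpl3l, Rpl10l and Rpl39l) are paralogues of other members. Ribosomal protein genes have many processed copies, and how RSEM shares reads among them sets some of the values. A symbol carried by several loci is given with the last digits of its identifier. The 4 such symbols (Rpl21, Rpl32, Rps27a and Rpl7a) account for 10 loci. The 2 Rpl7a loci hold identical values in all 48 libraries, and Rplp2, Rpl8, Rpl38 and Rpl39 each have at least 1 locus outside the rule with identical values. Of the members, 11 carry a 3 h symbol outside the rule, and 10 other loci fit the rule only by their 3 h symbol. One of these, named Rpl39 at 3 h, had a median of 59.8 TPM in CCD at 30 min, where the member Rpl39 was at 0 in 22 of 24 libraries. Rpl22 is outside the members for the same reason, and its locus stood at a median of 120 TPM in CCD at 30 min.

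The start sites of 10 members on which the results turn are shown because the tract at the start is what ties this gene family to mTORC1. Each line gives the 10 bases before and the 20 bases from the annotated start, on the gene's strand, from RefSeq on the build GRCr8. The deposited values were made on Rnor_6.0, so these coordinates apply to GRCr8 only. Capitals mark a tract, searched for on the gene's strand as a C at the annotated start followed by at least 4 letters that are each C or T.
Rps18 (chr20:4933735-4933764, plus strand): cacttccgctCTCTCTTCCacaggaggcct
Rplp1 (chr8:71290853-71290882, minus strand): cgcatgtgatCCTTTCCTCagctgccgcca
Rps27 (chr2:177964587-177964616, minus strand): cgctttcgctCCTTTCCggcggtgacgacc
Rplp0 (chr12:46718371-46718400, minus strand): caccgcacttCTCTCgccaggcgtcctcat
Rpl10 (chrX:157205840-157205869, plus strand): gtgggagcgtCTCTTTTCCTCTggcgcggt
Rps4x (chrX:71342902-71342931, minus strand): cgcgcgcagcctccgaccctaatttcttcg
Rpl18 (chr1:105325260-105325289, plus strand): acctggtctagcaggaggcgccatcatggt
Rpl4 (chr8:73566467-73566496, plus strand): tcttccttttcctgtgggagcagccgggta
Rps2 (chr10:14251838-14251867, plus strand): tctttttcttcgggaaaacacgtgagtctg
Rps27l (chr8:76443648-76443677, plus strand): ttcatttgtcattatttgtggtgtccagag

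Rps18, Rplp1, Rps27, Rplp0 and Rpl10 hold the tract at the annotated start and the other 5 do not. Of the 77 symbols, 60 had a RefSeq window, in 61 windows, and the tract was found in 22 of them (36.1%). Among all 33469 RefSeq windows it was found in 881 (2.63%). Where the annotated start lies a few bases from the start in use, the tract is missed. Allowing it to begin anywhere from 5 bases before the start, within a stretch reaching 10 bases past it, it was present in 60.7% of the member windows and in 17.0% of all windows. On this looser rule Rps4x and Rpl4 of the lines above hold it too. The Rps2 line shows a run of C and T that begins more than 5 bases before the annotated start, so both rules miss it.

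The members held 2.50 ± 0.135% of all TPM in CCD sham at 30 min and 2.24 ± 0.154% in cTAL sham (mean ± SD, n = 4). At 3 h the shares were 2.44 ± 0.0624% and 2.44 ± 0.205%. In CCD UUO the share was 2.93 ± 0.593% at 30 min and 2.51 ± 0.231% at 3 h. In cTAL UUO it was 2.22 ± 0.238% and 2.46 ± 0.231%. The wide spread in CCD UUO at 30 min came from 1 library. Library 2 of UUO number 2 held 5.001% of its TPM in the members and had the fewest detected genes (8744), while the other 7 libraries of that group lay between 2.46 and 3.15%. Of the 76 members with a mean of at least 20 TPM over all replicates, 69 had their highest CCD value at 30 min in this library.

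**Figure D1:**
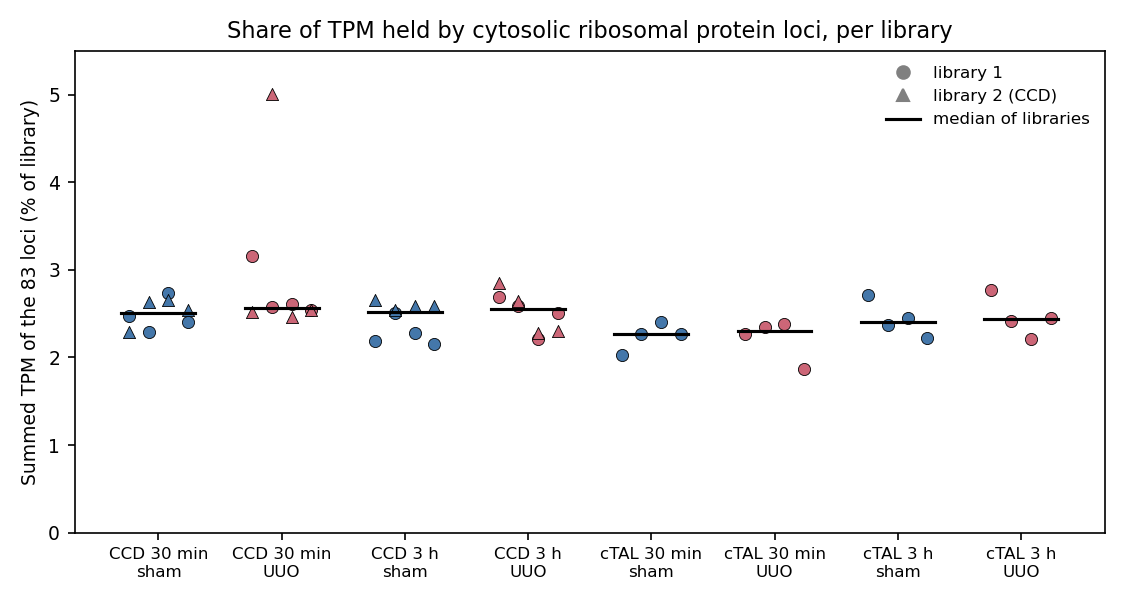
Percent of each library's TPM held by the 83 loci, by segment, time and arm. Circles are library 1 and triangles library 2 of a number, lines are medians over libraries, and numbers 1 to 4 run from left to right in each column. One CCD UUO library at 30 min stands at 5.001% and all others lie between 1.87 and 3.15%.

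Rplp1, a stalk protein, and Rpl41, the smallest protein of the ribosome, had the highest levels. In CCD sham, Rplp1 was at 1722 ± 123 TPM at 30 min and 1265 ± 122 TPM at 3 h; in cTAL sham the values were 875 ± 65.9 and 860 ± 88.9 TPM. For Rpl41 the CCD values were 1438 ± 102 and 1388 ± 53.5 TPM and the cTAL values 1308 ± 69.1 and 1421 ± 196 TPM. Rps27, a small subunit protein with a zinc finger, followed at 30 min with 969 ± 106 TPM (CCD) and 771 ± 87.1 TPM (cTAL). Rpl18 was among the 3 highest at 3 h in both segments, with 926 ± 52.1 and 898 ± 63.3 TPM. The median member stood at 249 TPM in CCD sham and 204 TPM in cTAL sham at 30 min. In CCD sham at 30 min, 61 of the 83 loci were above 100 TPM and 12 above 500 TPM. Across the 83 loci the sham levels of CCD and cTAL ranked alike, with Spearman's rho of 0.981 at 30 min and 0.989 at 3 h, given as a description over genes of the same libraries.

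The stalk proteins were not at equal levels by single locus. In CCD sham at 30 min Rplp0, which anchors the stalk, stood at 361 ± 32.8 TPM. Rplp2 stood at 195 ± 16.3 TPM at each of 2 loci with identical values. These were not added up, so Rplp2 cannot be ranked against Rplp0 here. Rps27l, a paralogue of Rps27 known as a p53 target, reached 570 ± 34.3 TPM in CCD sham and 403 ± 64.8 TPM in cTAL sham at 30 min. At 3 h it stood at 719 ± 76.0 and 532 ± 90.7 TPM, above Rps27 in CCD by mean (633 ± 31.3 TPM). The other paralogues were near 0. Rpl10l was at 3.88 ± 2.32 TPM in CCD sham at 30 min, Rpl39l at 2.72 ± 3.23 TPM, and Rpl3l, a muscle paralogue of Rpl3, at 0.0425 ± 0.0548 TPM, where Rpl3 itself stood at 363 ± 26.7 TPM.

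Most members varied little between replicates. Among the 76 loci at 20 TPM or more, the median SD within groups, pooled over the 8 groups, was 0.18 on the log2 scale. For all 4216 genes at 20 TPM or more it was 0.29. The sets share only this floor and were not matched for level, and the median member stood at 204 to 258 TPM in sham. The part of the level in the difference was not tested. An SD over 0.3 was found for 10 of the 76 (13.2%) and for 47.5% of all genes. The most variable members at 20 TPM or more were Rpl35a, Rps2 (0.75), Rps29 (0.71) and Rpl30 (0.56). Rpl38, with a mean of 6.11 TPM, had an SD of 1.71 and was at 0 in 13 of 24 libraries at 30 min. Rpl35a was at 0 in 7 of 24 libraries at 30 min and in 22 of 24 at 3 h. A second locus named Rpl35a at 3 h had medians of 49.8 TPM (CCD) and 22.5 TPM (cTAL) over the replicates at 30 min.

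**Figure D2:**
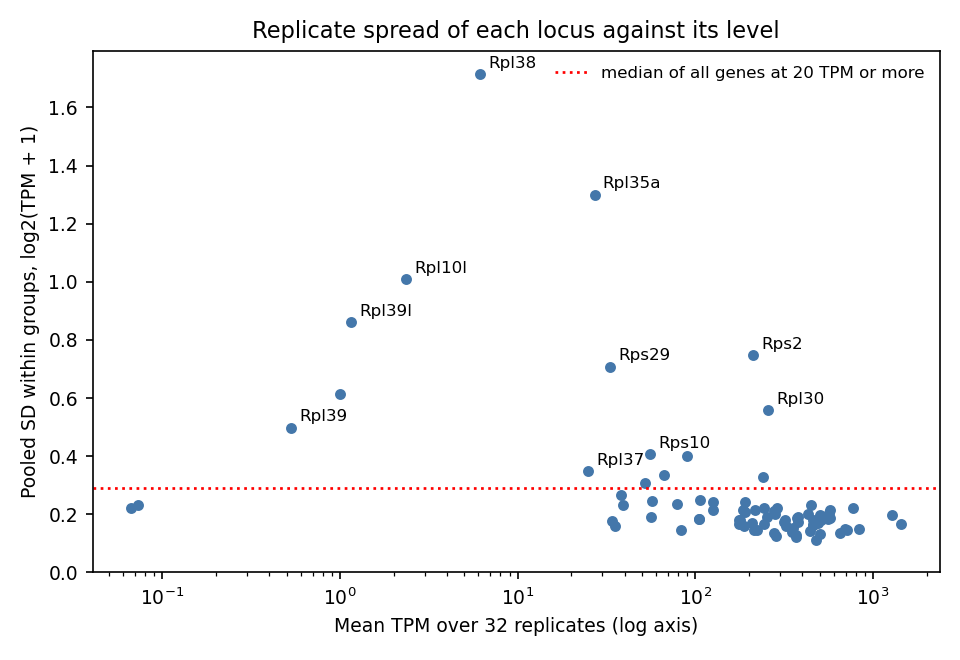
Pooled within-group SD of each locus on the log2(TPM + 1) scale against its mean TPM over 32 replicates (log axis), with the median SD of all genes at 20 TPM or more as a dotted line. Most loci above 100 TPM lie under the line, while Rps2 (0.75) and Rpl30 (0.56) lie far above it.

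Rps2, a small subunit protein beside the mRNA entry channel, also differed between the libraries of a number. In CCD sham at 30 min, library 1 held 385 to 487 TPM and library 2 held 124 to 244 TPM, with library 1 higher in 4 of 4 numbers. At 3 h the ranges were 273 to 375 TPM and 142 to 261 TPM, again with library 1 higher in 4 of 4. In CCD UUO library 1 was higher in 1 of 4 numbers at 30 min and in 0 of 4 at 3 h. This gene was singled out after its values were seen, and the labels do not say what sets the libraries of a number apart.

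No member was called changed by UUO in either segment at either time. UUO was set against sham in the log2(TPM + 1) of 4 against 4 replicates with limma, with Benjamini-Hochberg adjustment over all genes tested and a threshold of 0.05. Of the 83 members, 79 could be tested in CCD at 30 min, 77 in CCD at 3 h, 78 in cTAL at 30 min and 76 in cTAL at 3 h. Too low to test were Rpl3l, Rpl39, Rpl39l and Rpl21-29410 everywhere, Rpl35a and Rpl21-49848 at 3 h, and Rpl38 in cTAL. Calls over all genes made up 0.0264% of the genes tested in CCD at 30 min, 13.0% in CCD at 3 h, 0.00910% in cTAL at 30 min and 11.7% in cTAL at 3 h. At an unadjusted p under 0.05 stood 2, 3, 1 and 3 members, against 15.7%, 30.9%, 2.27% and 28.4% of all genes. The median standard error (SE) of a member's log2 change was 0.16, 0.11, 0.13 and 0.14 in the same order. Changes between -0.25 and 0.25 were measured for 59 of 79, 72 of 77, 72 of 78 and 67 of 76 members. The value farthest from 0 in CCD at each time belonged to Rpl38, a large subunit protein at 0 in many libraries, with 0.97 at 30 min (adjusted p = 0.538) and -1.47 at 3 h (adjusted p = 0.287).

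TPM sum to a fixed total, so a gene set can shift against the rest without any member being called. The median log2 change of the members was 0.16 in CCD at 30 min and 0.04 in CCD at 3 h, while the median over all genes tested was -0.31 and -0.14. In cTAL the members' medians were -0.04 at 30 min and -0.00 at 3 h, against -0.07 and -0.12 over all genes. A change above 0 was found for 70 of 79 members in CCD at 30 min (13.7% of all genes), 47 of 77 in CCD at 3 h (35.2%), 25 of 78 in cTAL at 30 min (34.1%) and 38 of 76 in cTAL at 3 h (40.2%). Members move together from library to library, so these counts are not independent observations and got no test. A smaller number of cells and less RNA per cell cannot be told apart in such bulk samples.

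Median-of-ratios rescaling, which sets the typical gene of each library equal, raised every comparison. The shift of the median over all genes was largest in CCD at 30 min, from -0.31 to -0.02. After rescaling the members' medians were 0.52 in CCD at 30 min, 0.18 in CCD at 3 h, 0.05 in cTAL at 30 min and 0.15 in cTAL at 3 h, against -0.02, -0.01, 0.01 and 0.01 over all genes. Read against the median of all genes, the members stood 0.47 higher in CCD at 30 min on the deposited scale and 0.54 higher after rescaling. The same gaps were 0.17 and 0.19 in CCD at 3 h, 0.02 and 0.04 in cTAL at 30 min, and 0.12 and 0.14 in cTAL at 3 h. Members and all genes were not matched for level, and the part of the level in these gaps was not tested. Limma called 0 of 79 members in CCD at 30 min (0.0264% of all genes), 0 of 78 in cTAL at 30 min (0.00910%) and 0 of 76 in cTAL at 3 h (9.04%) after rescaling, and 3 of 77 in CCD at 3 h (11.0%). At an unadjusted p under 0.05 stood 6 (9.53%), 0 (2.03%), 2 (25.9%) and 24 (27.2%). Against the all-gene median, 76 of 79, 73 of 77, 49 of 78 and 68 of 76 members lay above on the deposited scale.

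**Figure D3:**
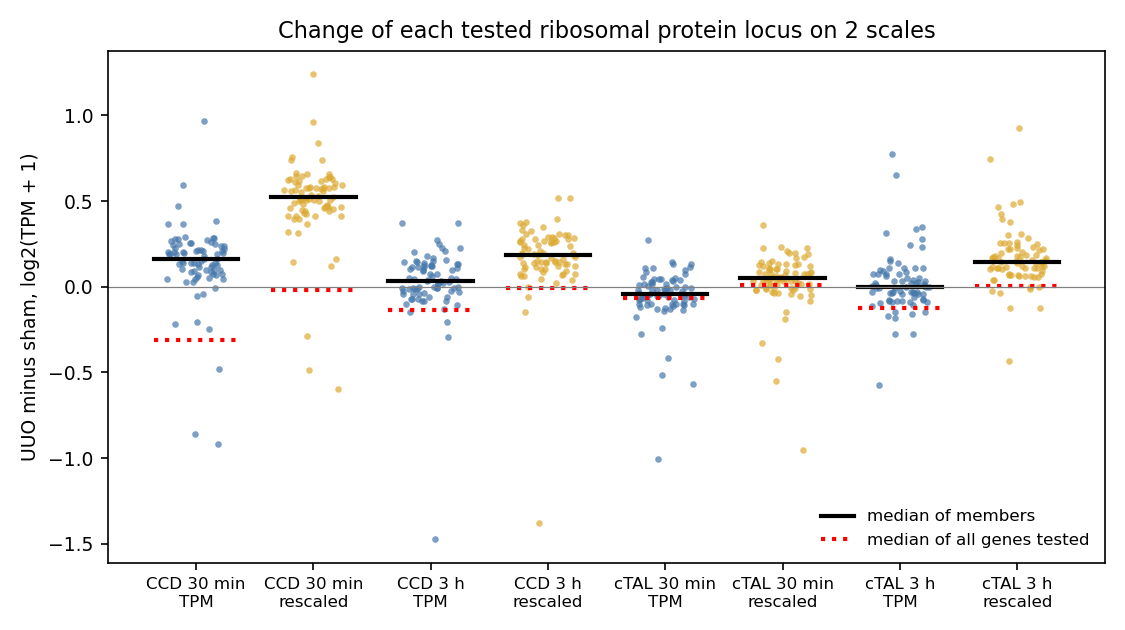
UUO minus sham in log2(TPM + 1) of each tested member, on deposited TPM (blue) and after median-of-ratios rescaling (yellow), in the 4 comparisons. Black lines are medians of the members and red dotted lines medians of all genes tested. The members' median lies above that of all genes in each column, by 0.54 in CCD at 30 min after rescaling and by 0.02 in cTAL at 30 min before it. The sets are not matched for level.

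Part of the CCD shift at 30 min rested on the library that stood apart. When only library 1 stood for UUO number 2, the members' median was 0.05, with 54 of 79 above 0 (21.3% of all genes) and a median over all genes of -0.17. After rescaling it was 0.26 without that library, against 0.00 over all genes, and 72 of 79 members were above 0 (50.1%). Without the library limma called 0 members on the deposited scale (0.0264% of all genes) and 0 after rescaling (0.0176%), and an unadjusted p under 0.05 was found for 4 (17.9%) and 37 (15.7%). Members whose UUO replicates all lay above all sham replicates numbered 22 of 79 after rescaling, both with the library (4.37% of all genes) and without it (4.84%). On the deposited scale there were 3 (0.449%) with it and 2 (0.536%) without. Mitochondrially encoded genes took a median of 14.7% of TPM in the CCD sham libraries and 19.97% in the CCD UUO libraries at 30 min, and every CCD UUO library had fewer genes of at least 1 TPM (8744 to 11189) than every CCD sham library (11257 to 11916). Principal cell markers summed to a median of 10906 TPM (7496 to 12315) in CCD sham and 6821 TPM (5948 to 10245) in CCD UUO at 30 min. The part of any of these in the result was not tested.

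By role, the small subunit proteins had a median change of 0.19 in CCD at 30 min (27 of 29 above 0), the large subunit proteins 0.14 (37 of 43) and the stalk proteins 0.14 (3 of 3). At 3 h in CCD the medians were 0.04, 0.04 and 0.11. In cTAL they were -0.01, -0.06 and 0.03 at 30 min and 0.02, -0.03 and 0.03 at 3 h. Members with a tract at the annotated start had medians of 0.20 (n = 21) in CCD at 30 min and 0.06 (n = 20) at 3 h, and those without it 0.15 (n = 34) and 0.02 (n = 34). In cTAL the medians were -0.02 (n = 21) with and -0.05 (n = 33) without it at 30 min, and 0.03 (n = 20) and -0.01 (n = 33) at 3 h. The class without it includes members whose tract lies a few bases from the annotated start, such as Rps4x and Rpl4. It also includes Rps2, with its run before the start, so the classes are not cleanly split. No role and no tract class was tested as a set, and the medians are given as a description.

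In CCD at 30 min the smallest p belonged to Rps27a-34246, which encodes a fusion of ubiquitin and a small subunit protein. Its sham replicates 1 to 4 stood at 293, 336, 360 and 378 TPM and its UUO replicates at 445, 583, 398 and 394 TPM. The arms did not overlap, and the log2 change was 0.38 (SE 0.15, adjusted p = 0.292). The other locus of that symbol, Rps27a-04426, went from 241 ± 31.4 to 267 ± 41.9 TPM (log2 change 0.12). Rplp1 stood at 1772, 1540, 1814 and 1761 TPM in sham and at 2043, 3581, 1790 and 2059 TPM in UUO (log2 change 0.37, adjusted p = 0.322). Its highest value was UUO number 2, and the arms overlapped through UUO number 3. Rpl23, which lies between the subunits and binds the anti-association factor Eif6, did not overlap, with 312 to 337 TPM in sham and 353 to 455 TPM in UUO (adjusted p = 0.331). Rps24 was the third such gene, and Rpl10, which joins the large subunit last, went from 612 ± 40.3 to 831 ± 266 TPM (adjusted p = 0.328).

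Rps2 had the opposite sign in CCD at 30 min. Its sham replicates stood at 284, 324, 366 and 306 TPM and its UUO replicates at 55.3, 252, 189 and 285 TPM. UUO number 1 was the lowest and UUO number 4 lay inside the sham range. The log2 change was -0.86 (SE 0.45, adjusted p = 0.350), and it was -0.33 without UUO number 1 and -1.13 without UUO number 4. With library 1 of each number alone it was -1.51 (adjusted p = 0.0268), and Rps2 was the only one of 78 members called there, where 8.40% of all genes were. With library 2 alone it was -0.21 (SE 0.61, adjusted p = 0.836), and 0.00891% of all genes were called. In those second libraries the sham values were 124, 217, 244 and 226 TPM and the UUO values 39.6, 347, 209 and 287 TPM, with UUO number 1 below all of sham and UUO numbers 2 and 4 above it. Rpl10l was also lower, from 3.88 ± 2.32 to 1.49 ± 1.35 TPM (log2 change -0.92, adjusted p = 0.307), at levels where the pseudocount weighs.

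At 3 h in CCD, Rps18 in the head of the small subunit came closest to a call. Its sham replicates stood at 468, 471, 500.045 and 470 TPM and its UUO replicates at 726, 663, 496 and 616 TPM. UUO number 3 lay just under sham number 3, and the other UUO values lay above all of sham. The log2 change was 0.37 (SE 0.11, adjusted p = 0.0581). Over the 8 fits that leave out 1 number it ran from 0.29 (without UUO number 1) to 0.48 (without UUO number 3). The last had an adjusted p of 0.0126, in a setting where 12.8% of all genes were called. Rpl18, a large subunit protein, went the other way, with 947, 926, 975 and 854 TPM in sham and 854, 794, 694 and 687 TPM in UUO. Only UUO number 1 reached the lowest sham value, and the log2 change was -0.29 (SE 0.09, adjusted p = 0.0665). Over the same 8 fits it ran from -0.25 (without UUO number 4) to -0.35 (without UUO number 1). The last had an adjusted p of 0.0346, where 15.5% of all genes were called. A second locus named Rps18 at 3 h, outside the members, ranged from 17.4 to 39.1 TPM in CCD at that time, and its change is not given.

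Rps4x, the X-linked small subunit protein, stood at 146, 148, 143 and 143 TPM in CCD sham at 3 h and at 205, 153, 169 and 158 TPM in UUO. The sham values were close together, all UUO values lay above them, and the log2 change was 0.23 (adjusted p = 0.177). A second locus named Rps4x at 3 h, also outside the members, ranged from 24.6 to 37.0 TPM in CCD, and its change is not given. Rpl4, which lines the exit tunnel, stood at 235, 229, 239 and 209 TPM in sham and at 261, 254, 246 and 243 TPM in UUO (log2 change 0.14, adjusted p = 0.273). These were the 2 members without overlap on the deposited scale, where 6.25% of all genes lay wholly higher. Rpl12, at the base of the stalk, went from 47.3 ± 5.71 to 62.3 ± 13.1 TPM (log2 change 0.38, adjusted p = 0.149).

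After rescaling 3 of 77 members rose in CCD at 3 h, where 6.65% of all genes were called higher. They were Rps18 (log2 change 0.52, adjusted p = 0.0227), Rps4x (0.38, adjusted p = 0.0242) and Rpl4 (0.29, adjusted p = 0.0459), and 0 were called lower (4.32% of all genes were). On that scale 9 of 77 members lay wholly above sham, against 9.36% of all genes. Leaving out 1 number at a time gave between 0 and 16 members called higher. The count of 16 of 77 came without UUO number 3, where 7.51% of all genes were called higher. Both Rpl7a loci, which hold identical values, are among the 16. The count was 0 without sham number 2 (3.11% of all genes) and without sham number 4 (3.78%). With the replicate number as a block it was also 0 (4.24%).

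**Figure D4:**
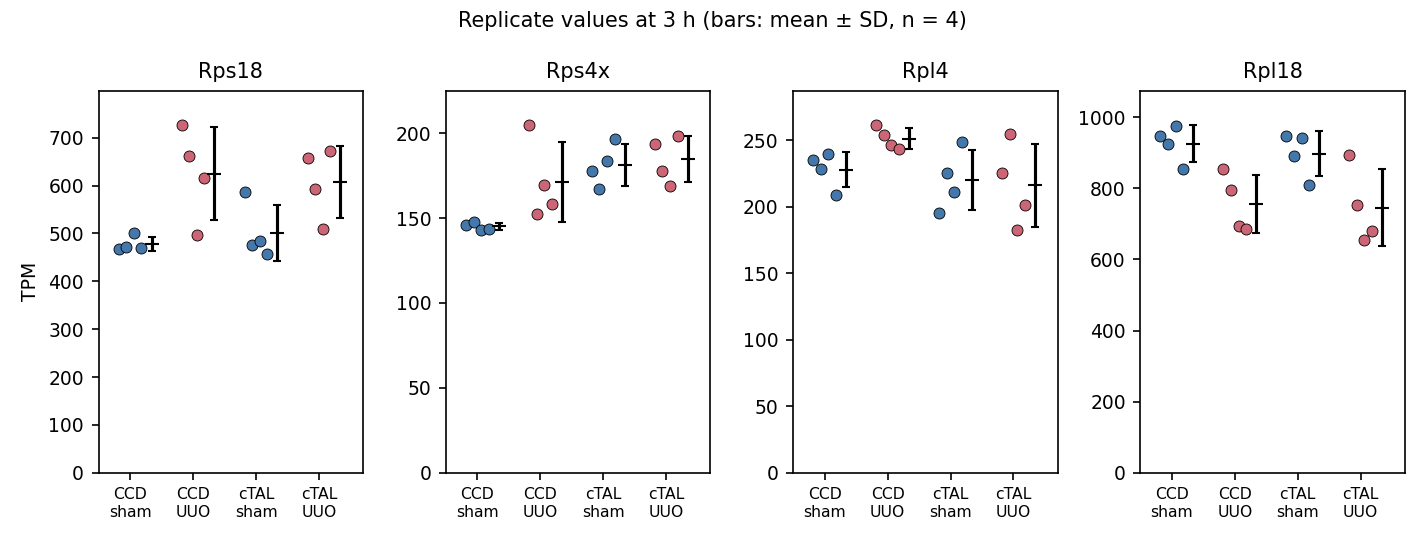
TPM of Rps18, Rps4x, Rpl4 and Rpl18 at 3 h in each replicate (numbers 1 to 4 from left to right) of CCD and cTAL, sham in blue and UUO in red, with mean ± SD (n = 4). In CCD the Rps18 values of UUO run from 496 to 726 TPM against 468 to 500.045 TPM in sham, and the Rpl18 values run lower in UUO in both segments.

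Cell type markers also differed between the arms in CCD at 3 h. The 8 principal cell markers summed to 15907 to 18653 TPM in sham and 5503 to 10052 TPM in UUO. The 9 proximal tubule markers summed to 86.7 to 288 TPM in sham and 240.3 to 1340.3 TPM in UUO, and 5 red blood cell markers to 25.4 to 1189 TPM and 1505 to 7975 TPM. No marker of these lists was at 0 in every replicate. Their part in the members' values was not tested. Without the 3 CCD libraries above 5000 TPM of the thick limb gene Umod (2 sham, 1 UUO), 0 of 77 members were called on the deposited scale (10.3% of all genes) and 2 (Rps4x and Rpl4) rose after rescaling (5.59% of all genes).

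In cTAL at 30 min the members were close to sham. Rpl32-10746 did not overlap, with 142 to 167 TPM in sham and 121 to 137 TPM in UUO (log2 change -0.28, SE 0.10, adjusted p = 1.00), where 1.40% of all genes lay wholly lower. Rpl10l (-1.01), Rpl37 (-0.42), Rpl36a (-0.24) and Rps6 (-0.17), the target of S6 kinase, had the next smallest p-values, all with adjusted p = 1.00. UUO number 4 had the lowest value of 61 of the 76 members at 20 TPM or more. Its median deviation from the sham mean was -0.32, and those of the other UUO numbers were 0.01, 0.03 and 0.11. Without it the members' median was 0.06.

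At 3 h in cTAL, Rpl36a of the large subunit had the smallest p. It stood at 219, 234, 221 and 219 TPM in sham and at 181, 169, 190.3 and 199 TPM in UUO. The arms did not overlap (14.1% of all genes lay wholly lower), and the log2 change was -0.27 (SE 0.10, adjusted p = 0.111). In CCD at 3 h the same gene had a log2 change of -0.21 with overlapping arms (adjusted p = 0.430). Rpl18 stood at 947, 892, 942 and 811 TPM in sham and at 895, 753, 655 and 680.2 TPM in UUO (log2 change -0.28, adjusted p = 0.151). Rps18 stood at 587, 475, 484 and 458 TPM in sham and at 658, 593, 508 and 671 TPM in UUO (log2 change 0.28, adjusted p = 0.173). Of 76 members tested in both segments at 3 h, Rps18 and Rpl18 were the 2 with an unadjusted p under 0.05 in both. Their signs were the same in both segments, without a call in either. Singly, 30.9% of all genes in CCD and 28.4% in cTAL had such a p, and the joint share was not computed. Both segments of a number may come from 1 animal, so they are not independent. Rpl27a had a log2 change of 0.35 (adjusted p = 0.257) and Rps2 of 0.78 (adjusted p = 0.319), with 154 ± 76.2 TPM in sham and 247 ± 90.8 TPM in UUO. The value for Rps2 was 0.29 without sham number 4 and 1.12 without UUO number 1.

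Marker sums differed in cTAL at 3 h too. The 7 thick limb markers summed to 35946 to 61494 TPM in sham and 31528 to 35825 TPM in UUO, the 9 proximal tubule markers to 15.6 to 224 TPM and 272 to 1042 TPM, and the 8 macrophage markers to 2333 to 3612 TPM and 1277 to 2203 TPM. Their part in the members' values was not tested.

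Other members with a known role outside the ribosome stayed uncalled. Rpl5 went from 244 ± 22.1 to 263 ± 45.4 TPM in CCD at 30 min and from 270 ± 4.35 to 248 ± 23.7 TPM at 3 h, with log2 changes of 0.09 and -0.13. Rpl11 had log2 changes of 0.28 and -0.06 in CCD and -0.08 and 0.03 in cTAL at 30 min and 3 h. Rps27l had log2 changes of 0.14 and -0.07 in CCD and -0.08 and 0.07 in cTAL. Rps6 had 0.21 and -0.03 in CCD and -0.17 and -0.08 in cTAL. Rplp0, often used as a reference gene, had 0.07 and 0.14 in CCD and -0.01 and 0.08 in cTAL. Rpl3 had -0.06 and 0.05 in CCD and -0.11 and -0.03 in cTAL. Rps12 had 0.19 and 0.23 in CCD and 0.09 and 0.23 in cTAL. After rescaling these stood higher, Rplp0 for instance at 0.45 and 0.28 in CCD, and they remained uncalled.

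In sham, CCD and cTAL differed in some members. CCD minus cTAL was tested within each sham number, with 4 pairs. At 30 min 9 of 78 members were higher in CCD (41.6% of all genes were) and 1 was lower (13.0%). Rps2 differed most among the 9, with 320 ± 34.7 TPM against 103 ± 54.2 TPM in cTAL (log2 difference 1.66, SE 0.26, adjusted p = 0.00213). Its CCD values average library 1 (385 to 487 TPM) and library 2 (124 to 244 TPM) of each number. The cTAL values, from 1 library each, ran from 54.8 to 156.8 TPM and overlapped those of library 2. The segment difference of Rps2 by library was not tested. Rplp1 followed, with each CCD value (1540 to 1814 TPM) above each cTAL value (802 to 962 TPM) and a log2 difference of 0.97 (SE 0.12, adjusted p = 0.000787). The others included Rpl8 (0.76), Rpl13 (0.66), Rps27l (0.51), Rplp2 (0.43), Rpl6 (0.36) and Rps27 (0.32). The member lower in CCD was Rpl35a (-3.34), at 18.4 ± 21.7 TPM against 79.6 ± 39.5 TPM in cTAL, the locus with the unstable values described above. Its second locus had the higher median in CCD.

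At 3 h only Rplp1 was called among 77 members, with 1265 ± 122 against 860 ± 88.9 TPM (log2 difference 0.55, SE 0.15, adjusted p = 0.0337), where 27.0% of all genes were higher in CCD, and 0 were lower (9.97%). Rps2 (0.90, adjusted p = 0.0813) and Rps27l (0.44, adjusted p = 0.0638) missed the threshold. Leaving out any 1 sham number left no member called higher at 3 h, and 4 to 6 at 30 min. Without the pairing, 3 members were higher and 5 lower at 3 h, against 27.2% and 10.1% of all genes.

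The direction of most other members between segments depended on the scale. Over all genes the median of CCD minus cTAL was 0.30 at both times on the deposited scale, and the members' median was 0.06 at 30 min and -0.07 at 3 h. After rescaling, 54 of 78 members above 0 at 30 min became 11, and 27 of 77 at 3 h became 6. The calls became 2 higher (Rps2 and Rplp1) and 23 lower at 30 min (26.8% and 23.0% of all genes), and 0 higher and 15 lower at 3 h (14.0% and 15.4%). The lower calls at each time count both Rpl7a loci, which hold identical values. The largest log2 differences among those lower, after Rpl35a at 30 min, were Rpl37 (-0.67) at 30 min and Rps20 (-0.79), Rpl7a (-0.66) and Rplp0 (-0.66) at 3 h. Rps2 and Rplp1 were thus the members called higher in CCD on both scales at 30 min, by 1.33 and 0.63 after rescaling.

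**Figure D5:**
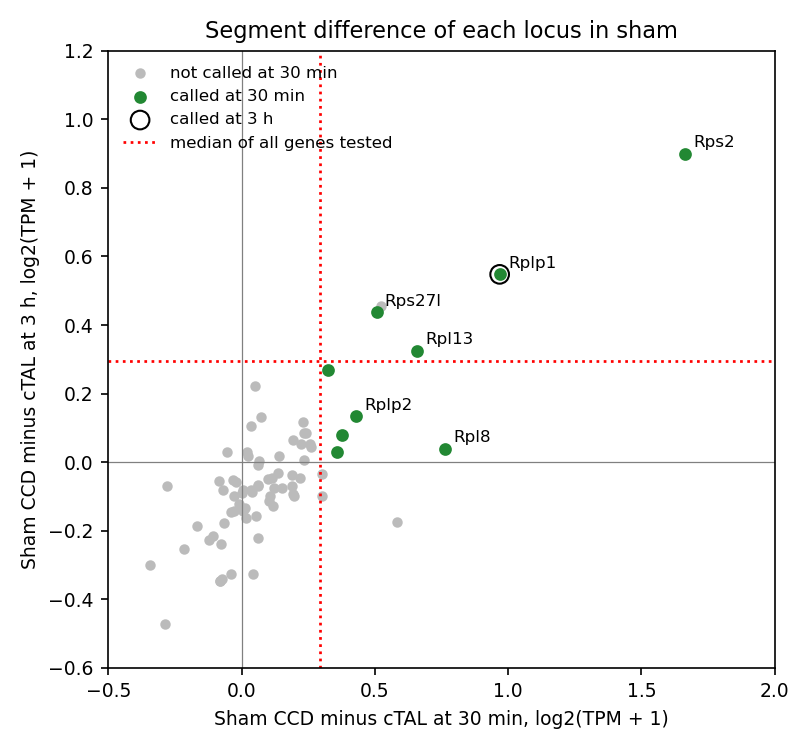
Sham CCD minus cTAL in log2(TPM + 1) of the 76 loci tested at both times, 30 min on the horizontal and 3 h on the vertical axis. Green loci were called at 30 min, the ringed one at 3 h, and dotted lines are the medians of all genes tested (0.30). Rps2 and Rplp1 lie farthest to the upper right and most loci lie under both dotted lines.

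The difference between the segments' responses to UUO was tested as well. It was called for 0 of 79 members at 30 min (0.679% of all genes) and 0 of 76 at 3 h (0.350%) with limma. At an unadjusted p under 0.05 there were 2 and 0 members, against 14.9% and 14.6% of all genes. The 2 were Rpl32-10746 (0.53, adjusted p = 0.208) and Rpl36a (0.51, adjusted p = 0.227), both higher in CCD and lower in cTAL by value at 30 min. The members' median of the difference was 0.19 at 30 min and 0.04 at 3 h, against -0.24 and 0.01 over all genes.

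Genes that supply or serve the ribosome were taken from lists chosen for this comparison. At 3 h limma called 15 of the 127 list genes tested in CCD (11.8%, against 13.0% of all genes) and 7 of 125 in cTAL (5.6%, against 11.7%). At 30 min it called 0 of 129 in CCD (0.0264% of all genes) and 0 of 132 in cTAL (0.00910%), with 12 and 7 at an unadjusted p under 0.05 (15.7% and 2.27% of all genes). Of 42 ribosome biogenesis factors tested in CCD at 3 h, 4 rose and 0 fell (9.52% called, against 13.0% of all genes), with a median of -0.06. Sbds, which releases Eif6 from new large subunits, rose from 148 ± 13.3 to 250 ± 29.8 TPM (log2 change 0.75, adjusted p = 0.00688). Nmd3, the export adaptor of the large subunit, rose by 0.61, the nucleolar GTPase Gnl3 by 0.63 and Nip7 by 0.43. In cTAL limma called 0 of 43 on the deposited scale (11.7% of all genes), with 10 at an unadjusted p under 0.05 (28.4% of all genes). After rescaling 2 of these 43 rose, where 9.04% of all genes were called.

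Of 34 translation initiation factors, 5 rose and 1 fell in CCD at 3 h (17.6% called, against 13.0% of all genes), and 4 rose and 1 fell in cTAL (14.7%, against 11.7%). Eif1, which governs start codon choice, rose from 970 ± 79.6 to 1508 ± 158 TPM in CCD and from 729 ± 71.9 to 1306 ± 97.7 TPM in cTAL, with log2 changes of 0.63 (adjusted p = 0.00808) and 0.84 (adjusted p = 0.00173). The helicase Eif4a1 rose by 0.48 and 0.60 and Eif1a by 0.72 and 0.83. Eif6 rose by 0.37 and Eif2s2 by 0.40 in CCD. The exchange factor subunit Eif2b2 fell by 0.59 in CCD, and Eif2b4 fell by 0.71 in cTAL.

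Of the 13 elongation factors and related TOP genes, 1 rose and 1 fell in CCD at 3 h (15.4% called, against 13.0% of all genes). Pabpc1, the poly(A)-binding protein, rose by 0.61 and Eef1d fell by 0.41. In cTAL 1 of 13 was called (7.69%, against 11.7% of all genes), Hnrnpa1, which rose by 0.69. Of 13 RNA polymerase I genes tested, 1 rose in CCD at 3 h, Cd3eap (0.89, adjusted p = 0.0152), or 7.69% against 13.0% of all genes. In cTAL limma called 0 of 13 (11.7% of all genes), and 3 had an unadjusted p under 0.05 (28.4% of all genes). Of 16 regulators of ribosome supply tested in CCD at 3 h, 2 were called (12.5%, against 13.0% of all genes), with a list median of -0.21. In cTAL 1 of 13 was called (7.69%, against 11.7%), with a median of -0.08. Myc, the transcription factor known to drive ribosome biogenesis, rose from 1.08 ± 0.421 to 16.1 ± 7.61 TPM in CCD at 3 h. In cTAL it rose from 1.02 ± 0.889 to 17.3 ± 7.96 TPM, and the log2 changes were 2.87 and 3.17. Ddit4, an inhibitor of mTORC1, fell by 1.31 in CCD. The ribosomal protein genes that the naming rule misses (Rpsa, Fau, Rack1 and others) had 0 of 9 called by limma in each comparison. Over all genes the share called was 0.0264% and 13.0% in CCD and 0.00910% and 11.7% in cTAL at 30 min and 3 h. At an unadjusted p under 0.05 stood 0 and 1 of the 9 in CCD (15.7% and 30.9% of all genes) and 1 and 1 in cTAL (2.27% and 28.4%). After rescaling 1 rose in each segment at 3 h, where 11.0% (CCD) and 9.04% (cTAL) of all genes were called. Their medians were 0.16 and -0.12 in CCD and -0.04 and 0.06 in cTAL at 30 min and 3 h.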

How the data were processed

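RNA of microdissected rat tubules was sequenced in 48 libraries, made with SMARTer V4 and Nextera XT kits per the labels' protocols, and 8 whole-kidney samples were not analysed here. The processing notes of the submitters name STAR 2.7.3, RSEM 1.3.3 and Rnor_6.0, and the authors deposited gene-level TPM in separate tables for both times. TPM do not keep depth, so no interval that needs it is given.

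For CCD, log2 values of both libraries with the same number were averaged, and TPM printed per replicate are their mean. Genes that reached 1 TPM in 4 or more of 8 replicates were tested on log2(TPM + 1) with limma 3.58.1 in R 4.3.3 (mean-variance trend, Benjamini-Hochberg over all genes tested, called under 0.05), on simulated data first. This scale understates the change of low genes. CCD minus cTAL was tested within numbers, as was its difference between arms. The R package data.table (version 1.17.8) read the files, and figures drawn with matplotlib 3.10.9 under Python 3.11.15.

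The members, lists, tests and alternatives were chosen with earlier results of these data known. Named were, per comparison, the largest called changes or, with fewer than 5 calls, the 5 smallest p-values, a set of members with known roles, the 3 highest and 3 lowest members in sham, and up to 4 called genes of each list. Numbers were checked for pairing by the correlation of deviations from group means. In CCD at 30 min all 4 pairs of sham and UUO exceeded 0.1 (0.12 to 0.23). The SEs and p-values printed for UUO against sham still come from fits without the numbers. A block on the numbers was run as an alternative and changed no member's call there. In the other comparisons pairs ran from -0.23 to 0.18. CCD and cTAL of one sham number correlated by 0.27 to 0.39 at 30 min and by 0.06 to 0.21 at 3 h, where 1 pair of 4 missed 0.1. Values of some single genes are not reported here.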

Additional observations from a re-analysis of the deposited data

Results flagged for a closer look

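Among 200 groups of 4 replicates of named members, 11 held a value that Dixon's test at the 95% level sets apart from the others. Chance alone would give such a value in about 5% of groups. Replicate 2 of CCD UUO at 30 min, which includes the library with 5.001% of its TPM in the members, was highest for Rplp1 (3581 TPM against 1790 to 2059 TPM) and Rplp2 (324 TPM against 183 to 196 TPM). In CCD sham, Rps4x was highest in replicate 3 at 30 min (191 TPM against 174 to 176 TPM) and Rps18 in replicate 3 at 3 h (500.045 TPM against 468 to 471 TPM). In cTAL sham, Rpl41 was highest in replicate 3 at 30 min (1410 TPM against 1263 to 1285 TPM) and Rpl36a in replicate 2 at 3 h (234 TPM against 219 to 221 TPM). Rps29 was lowest in replicate 3 of cTAL UUO at 3 h (3.23 TPM against 25.3 to 26.6 TPM). The other 4 are loci listed at 0 in the remaining 3 replicates. Rpl39 was at 0.57 TPM in CCD sham replicate 4 and at 7.58 TPM in CCD UUO replicate 3 at 3 h. Rpl3l was at 0.08 TPM in cTAL UUO replicate 3 at 30 min and at 1.39 TPM in cTAL sham replicate 1 at 3 h.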

How the results depend on the processing

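The count of 0 called members held under the pseudocounts, filters, quantile normalization, removal of mitochondrially encoded genes and the replicate block in each UUO comparison. Exceptions were library 1 alone in CCD at 30 min (1 lower) and median-of-ratios rescaling in CCD at 3 h (3 higher, 0 with the replicate block, and 2 without the libraries high in Umod). Leaving out 1 number gave 0 to 2 higher and 0 to 1 lower in CCD at 3 h (0 to 16 higher and 0 lower after rescaling) and 0 elsewhere. The settings that join rescaling with another change were chosen after seeing the data. Rescaling moved the medians to 0.52 in CCD at 30 min, 0.18 in CCD at 3 h (also 0.18 with the replicate block) and 0.15 in cTAL at 3 h. The cause was not tested. In CCD at 3 h and in cTAL the numbers share only a number, and 0 of 4, 1 of 4 and 0 of 4 samples correlated best with their own number.

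Sham segment calls at 30 min depended on the setting. Over the 12 settings run, 21.5% to 44.0% of all genes were higher and 7.30% to 26.9% lower in CCD at 30 min, and 12.2% to 33.7% and 5.58% to 15.4% at 3 h. The members' share called higher was under that of all genes in 12 of 12 settings at each time, and the share called lower in 10 of 12 and 11 of 12, the exceptions being rescaling at both times and quantile normalization at 30 min. Those higher in CCD numbered 15 with a pseudocount of 5, 2 with rescaling, 2 with quantile normalization, 5 without mitochondrially encoded genes and 4 to 6 leaving out 1 number. Those lower numbered 0 with a pseudocount of 0.1, 0 without the filter, 23 with rescaling, 29 with quantile normalization, 3 without mitochondrially encoded genes and 0 to 1 leaving out 1 number. At 3 h those higher numbered 0 with a pseudocount of 0.1, 3 with 5, 2 with the stricter filter, 0 with rescaling, 0 with quantile normalization, 0 without mitochondrially encoded genes, 3 without the replicate block and 0 to 0 leaving out 1 number. Those lower at 3 h numbered 5 with a pseudocount of 5, 1 without the filter, 5 with the stricter filter, 15 with rescaling, 9 with quantile normalization, 1 without mitochondrially encoded genes, 5 without the replicate block and 0 to 1 leaving out 1 number.

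Of 1352 values of named members under these alternatives, 1298 stayed uncalled and within the replicate SD of the reported value. Another 48 stayed uncalled but moved further than that, and 6 passed the threshold newly. Uncalled values had another sign than reported in 100 cases. Depth is unknown, so members near 0 TPM cannot be told from unsampled ones.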
